A study of Mus musculus with 24 samples.

Results

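Primary mouse brain microvascular endothelial cells (MBMECs) from wild-type mice that received only vehicle medium are the 4 of 24 libraries described here, chosen by their label as wild-type vehicle control, replicates 1 to 4. The other 20 libraries fall into 5 groups of 4. Wild-type cells received 500 nM of the S1P4 agonist CYM50260 on the apical side, the same agonist on the basal side, 50 nM sphingosine-1-phosphate (S1P) on the apical side or S1P on the basal side, and the last group is cells given vehicle from mice with the strain label S1P4 KO/KO, a global knockout of that receptor. Every group was measured 24 h after its medium was changed. All wild-type mice carried the strain label C57B/6J, and the age of the mice is not stated. Cells of all groups came from cortex and midbrain microvessels of pooled brains, 12 mice to a replicate according to the design text, and passed through 48 h of puromycin, which endothelial cells survive because they pump it out. They were then grown to a barrier on transwell inserts, porous supports that separate an upper from a lower medium, and 3 inserts made up 1 RNA sample. The cells were therefore several days away from blood flow and from neighbouring pericytes and astrocytes. The protocol does not say to which side the vehicle was given. No source ties replicates of different groups to the same or to separate pools of mice, so tests below measure the spread between these libraries, which may be technical.

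The endothelium of the brain forms the blood-brain barrier. Its cells are joined by tight junctions that close the path between cells, they carry out little transcytosis, and they use specific carriers to bring glucose and amino acids into the brain while efflux pumps return drugs to the blood. Much of this state depends in the living brain on Wnt ligands from neural cells and on contact with pericytes, and it is known to weaken when the cells are kept in culture.

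Values are called normalized counts, since they read as gene counts that were scaled and rounded before deposit, although no source used here states the unit. The 4 vehicle libraries summed to 4590788, 4567866, 4500734 and 4656286 normalized counts in replicates 1 to 4, the order used for every set of 4 values below. A gene is called detected at a mean of at least 10 over the 4 libraries, and 12316 of 18091 genes were. Levels of different genes are compared only per kb of exon, over the 12312 detected genes with an annotated exon length, and a percentile gives the place of a gene's level per kb among them. The number of reads behind a value was not recovered, so no counting interval is given.

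The scale of the wild-type table was narrow. Over the 12075 genes detected in both tables, the 95th percentile of the level per kb was 191.5 times the 5th percentile in the libraries labelled S1P4 knockout and 43.44 times in the wild-type vehicle libraries. The highest level per kb was 47867.2 in the knockout table and 701.3 in the wild-type vehicle libraries. Fn1, which encodes the matrix protein fibronectin, averaged 231550.2 normalized counts in knockout vehicle and 6464.8 in wild-type vehicle, and Eef1a1, a translation factor, averaged 119333 and 787.5 in that order of groups. Across genes the log2 level in wild-type vehicle climbed by 0.81 for each log2 unit of the knockout table below the median level and by 0.49 above it. The order of genes was close between the tables, with a Spearman correlation of 0.966 across genes, which are not independent replicates. Ranks are therefore used below beside levels, and a ratio between abundant genes on this scale is smaller than in the knockout table. The correlation covers all levels, so the order among the most abundant genes may still differ between the tables. The 2 tables were normalized separately and use different gene models, so no test was made between them. Scaling by 1 factor per library leaves the ratios between genes of a library as they were and cannot give this bend, and the step that gave it is not stated in the sources used here and was not tested.

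**Figure D1:**
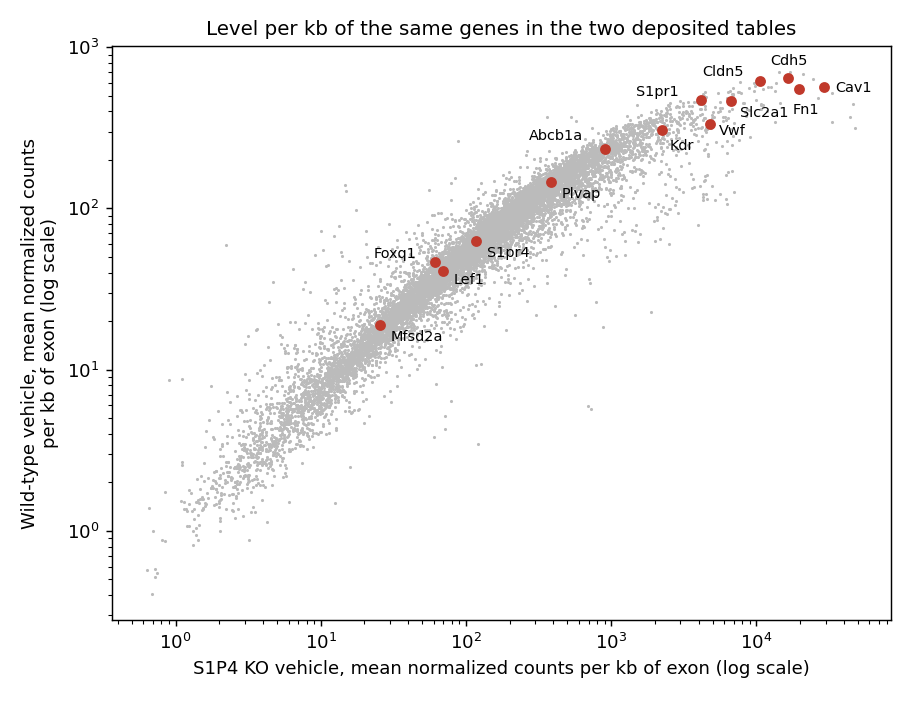
Mean normalized counts per kb of exon in the 4 wild-type vehicle libraries (vertical, log scale) against the 4 libraries labelled S1P4 knockout (horizontal, log scale), 1 grey point for each of 12075 genes, with named genes in red. The cloud bends towards the horizontal at the top, where knockout values reach 47867.2 per kb and wild-type vehicle values end at 701.3 per kb.

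Among the genes of the wild-type table, in which mitochondrially encoded genes were not analysed here, the 10 with the highest level per kb in the vehicle cells were Apln at 701, Col4a2 at 698, Eef2 at 681, Col4a1 at 653, Cdh5 at 647, B2m at 635, Cd93 at 617, Cldn5 at 613, Ccn1 at 605 and Tpm4 at 603 normalized counts per kb. Their order is that of the narrow scale. In knockout vehicle these 10 genes stood between 7725.9 (Ccn1) and 24579.4 (B2m) per kb, below the highest level there of 47867.2. Apln encodes apelin, a peptide made by endothelial tip cells during sprouting. Col4a1 and Col4a2 encode the collagen IV chains of the basement membrane, Cdh5 the endothelial cadherin of adherens junctions, Cd93 an endothelial surface receptor and Ccn1 a matrix protein made in response to growth factors. Eef2 is an elongation factor of translation, B2m the light chain of MHC class I, and Tpm4 a tropomyosin. Apln held 1878, 2049, 2482 and 2425 normalized counts, higher in replicates 3 and 4 than in 1 and 2.

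The label was checked against cell type markers. All 15 endothelial markers were detected and 14 of them lay in the top decile of the level per kb, which holds 10% of all detected genes. Their summed normalized counts were 29201, 29455, 27553 and 30795, close in the 4 libraries. Of the 15 markers of specialised brain endothelium all were detected too, 7 of them in the top decile, with sums of 11541, 11357, 10884 and 12895. Cldn5, Slc2a1 and Bsg were the highest of these per kb, and Mfsd2a, Lef1 and Foxq1 the lowest. Arterial markers such as Gja4 (398 per kb) and Sema3g (353 per kb) and venous markers such as Ephb4 (260 per kb) and Ackr1 (223 per kb) were all detected, 12 of 12 in each list. All 6 markers of fenestrated or choroid endothelium were detected too, 1 of them in the top decile. Their sums were 2274, 2385, 2313 and 2250 normalized counts. Of the 7 lymphatic markers 3 were detected, 1 of them in the top decile, with a median percentile of 20.63. Their sums were 1766, 1716, 1557 and 1729 normalized counts. Flt4 stood at 186 per kb, and the other detected members are not named here. A further 3 were under 10 normalized counts, among them Pdpn and Prox1, the transcription factor that sets lymphatic identity. The remaining 1 was not analysed here.

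RNA of other vascular cells was present and unequal between the libraries. Pericyte markers summed to 4339, 3774, 2739 and 2043 normalized counts, and smooth muscle markers to 4781, 4921, 4143 and 3562. Fibroblast markers summed to 1637, 1741, 516 and 597. Replicate 4 was the lowest for pericyte and smooth muscle sums, and replicates 3 and 4 were both low for fibroblast markers. In the pericyte list 9 of 12 members were detected, and 8 of these 9 differed at least 2-fold between the highest and the lowest library, against 11.2% of all detected genes. Kcnj8 and Higd1b, further pericyte genes, averaged under 10 normalized counts. Part of the sums comes from genes that endothelial cells also express, such as Mcam and Smtn. In bulk RNA, fewer cells of a type and less RNA per cell cannot be told apart.

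Many defining markers of brain parenchyma were under the detection threshold, while each list kept a few detected members. Gfap, Aqp4 and Slc1a3 of astrocytes, Mbp of oligodendrocytes, Rbfox3 of neurons, and Csf1r, C1qa, Cx3cr1 and Tmem119 of microglia all averaged under 10 normalized counts. Detected were 2 of 9 astrocyte markers, with sums over the list of 639, 548, 748 and 711 normalized counts, mostly from the gap junction gene Gja1 at 544, 476, 653 and 576. Of 10 markers of the oligodendrocyte lineage 3 were detected, with sums of 1104, 891, 763 and 469. Cnp, a myelin enzyme, held 321, 320, 371 and 372 of these, and the other two detected members, Cspg4 and Pdgfra, are also in the lists of pericyte and fibroblast markers. Of 9 neuron markers Tubb3, Stmn2 and Map2 were detected, with sums of 283, 317, 426 and 320, and Stmn2 is also in the arterial list. Of 14 microglia and macrophage markers 3 were detected, 1 of them in the top decile, with sums of 606, 564, 497 and 535. Cd68 held 68, 46, 38 and 36 of these and Mrc1 32, 26, 3 and 12. Most of the sums thus came from the remaining detected member, which is not named here. The part of parenchymal RNA in these values was not tested. Of 6 markers of choroid plexus epithelium and ependyma 4 were detected, with sums of 489, 472, 428 and 469. Of these 4, 3 had a range of at least 2-fold, against 11.2% of all detected genes. The 5 erythroid markers were not analysed here. Cell cycle genes were well expressed, with 17 of 18 detected. Mki67, a protein of dividing cells, held 1930, 1964, 618 and 752 normalized counts, so replicates 1 and 2 stood well above 3 and 4. The DNA topoisomerase Top2a followed the same order of libraries with 1415, 1450, 808 and 1085.

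**Figure D2:**
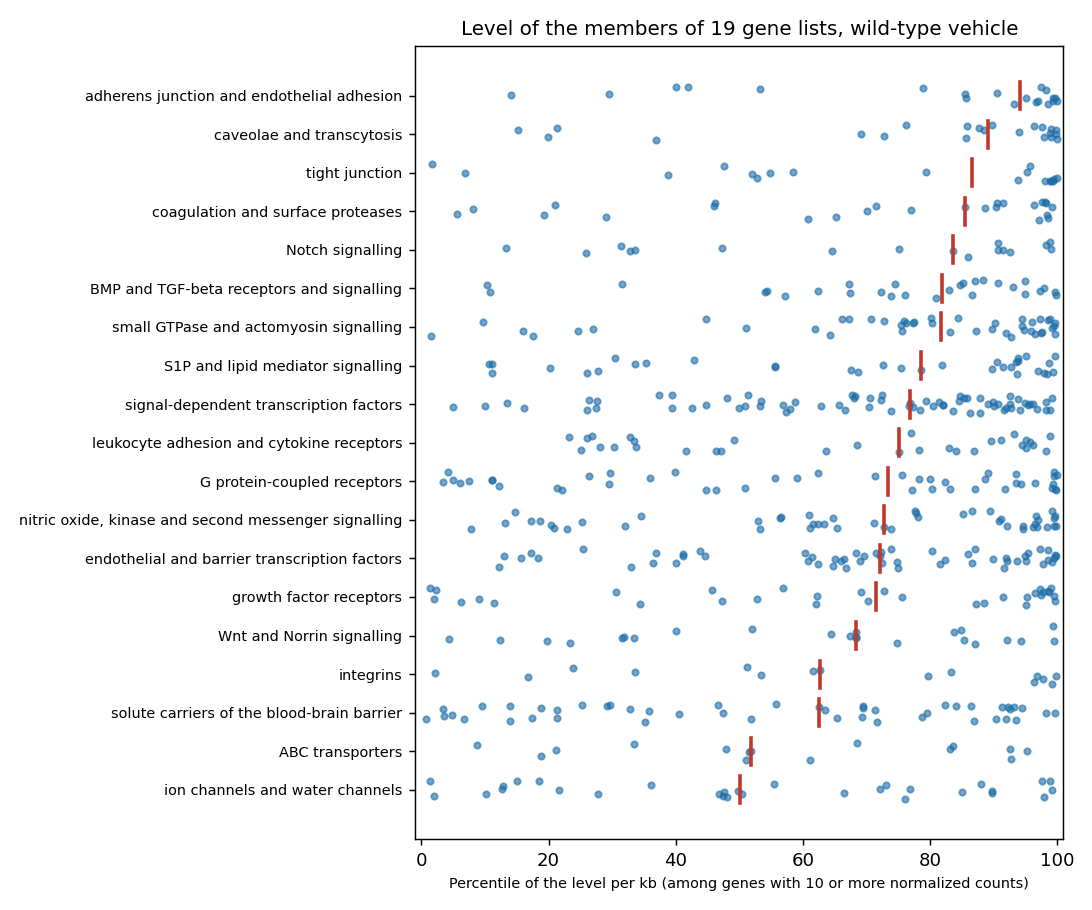
Percentile of the level per kb for the detected members of 19 gene lists in wild-type vehicle cells (horizontal), 1 point for each gene, with the list median as a red bar. Medians run from 50.18 for ion channels and water channels to 94.13 for adherens junctions and endothelial adhesion.

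In all, the 19 lists described below hold 673 genes, of which 597 were detected and 187, or 31.32%, lay in the top decile. The lists were put together with earlier results of these data known, so this share is a description. Members without a row in the wild-type table count as not analysed here.

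Tight junction genes stood high, with a median percentile of 86.67 over 18 detected of 30 members and 9 in the top decile. Cldn5, the main claudin of brain endothelium, lies on mm10 chr16:18776847-18778262 on the plus strand. Cldn5 held 799, 823, 867 and 984 normalized counts, a mean of 868 ± 82.1 (SD, n = 4) and 613 per kb. Replicate 4 was the highest and replicate 1 the lowest. Below it per kb came Jcad at 426, a protein of endothelial junctions, Esam at 412 and F11r at 368, both adhesion molecules of the immunoglobulin family, and Tjp1 at 363. Tjp1, which encodes the scaffold ZO-1, held 2810, 2859, 2686 and 2980 normalized counts. Ocln, the membrane protein occludin, held 1070, 1027, 966 and 1054 normalized counts and 244 per kb. The values of both genes lay within 1.11-fold between the highest and the lowest library.

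The other claudins were far lower. Cldn12 reached 57.1 per kb, and Cldn1 and Cldn4 stood at the threshold with means of 11 and 10.8 normalized counts. Cldn3, Cldn7, Cldn11 and Cldn15 were under 10, as was Tjp3, the scaffold ZO-3 of epithelia. Cldn2, Cldn10, Cldn14, Cldn20, Cldn22, Marveld3 and Cgn were not analysed here. Lsr, the angulin of tricellular junctions, was at 214 per kb and was highest in replicate 4 with 569, against 436, 419 and 438 in the others.

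**Figure D3:**
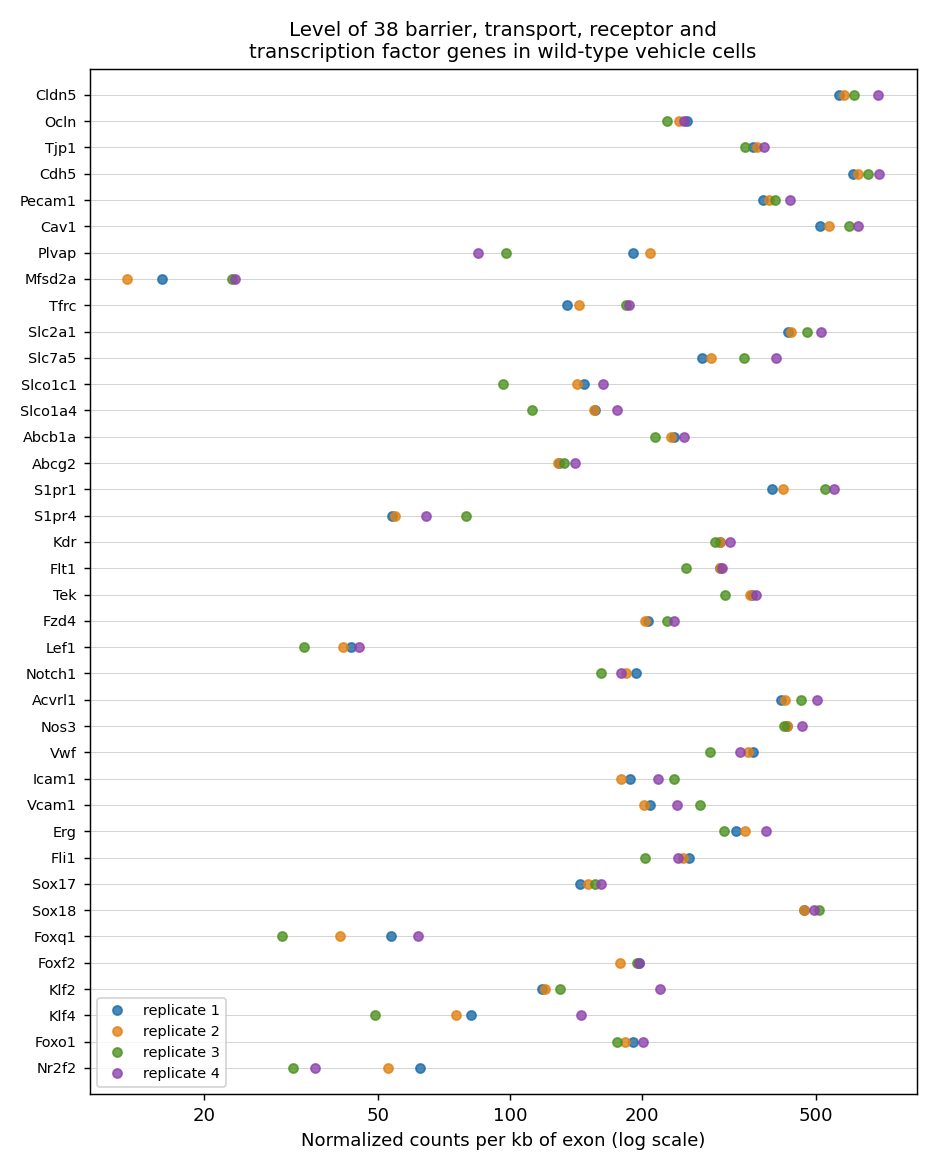
Normalized counts per kb of exon in each wild-type vehicle library (horizontal, log scale) for 38 genes of junctions, transport, receptors, signalling and transcription, 1 coloured point for each replicate. Most genes keep their 4 points close together, while Plvap, Mfsd2a, Foxq1, Klf4 and Nr2f2 spread widely.

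Promoters of 2 highly ranked genes are shown here, because the ETS factors Erg and Fli1 described below bind GGAA cores in endothelial genes. The 250 bases before the RefSeq start (GRCm38.p6) are printed 5′ to 3′ on the coding strand, for Cldn5 at chr16:18776597-18776846 on the plus strand and for Flt1, a receptor of vascular endothelial growth factor (VEGF), at chr5:147726012-147726261 on the minus strand. Capitals mark GGAA or its reverse TTCC (the ETS core, on both strands), TGACGTCA (a cyclic AMP response element, which reads the same on both strands) and TATAAA (coding strand only), and the motifs do not overlap.
Cldn5: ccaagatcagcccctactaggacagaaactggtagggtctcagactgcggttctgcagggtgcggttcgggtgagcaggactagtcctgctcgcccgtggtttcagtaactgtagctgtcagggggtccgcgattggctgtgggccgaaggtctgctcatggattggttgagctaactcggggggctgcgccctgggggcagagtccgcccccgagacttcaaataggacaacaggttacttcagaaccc
Flt1: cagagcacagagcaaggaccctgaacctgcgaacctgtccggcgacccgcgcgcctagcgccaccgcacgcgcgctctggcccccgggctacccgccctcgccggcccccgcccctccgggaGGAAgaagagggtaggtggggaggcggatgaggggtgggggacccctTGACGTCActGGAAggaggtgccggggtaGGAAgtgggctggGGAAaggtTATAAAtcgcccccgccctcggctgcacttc
The Flt1 window held 4 ETS cores, 1 TGACGTCA and 1 TATAAA, and the Cldn5 window held 0 of each, while both genes ranked in the top decile. An ETS motif beside a cyclic AMP response element is known from work on the human FLT1 promoter. Among 32851 windows of the same length 93.45% held an ETS core, 33.38% held at least 4, 1.546% held TGACGTCA and 7.592% held TATAAA. Of 15 windows of endothelial marker genes 86.67% held an ETS core, with a median of 4 cores against 3 over all windows. A match describes letters and is not a measured binding site.

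The list of adherens junction and endothelial adhesion genes had the highest median percentile of the 19 lists, 94.13 over 20 detected of 21 members. Of these, 12 lay in the top decile. Members such as Pecam1, Mcam and Tek are endothelial surface genes and not parts of adherens junctions, so the median is not that of adherens junctions alone. Cdh5, or VE-cadherin, lies on chr8:104101625-104144511 on the plus strand of mm10. Cdh5 held 2560, 2622, 2766 and 2928 normalized counts, with a mean of 2719 ± 164 (SD, n = 4) and 647 per kb. The adhesion molecule Mcam was next at 462 per kb, followed by Ctnnb1 (beta-catenin) at 418, Pecam1 at 402 and Tek at 346. Pecam1, an adhesion molecule at endothelial borders, held 2358, 2433, 2516 and 2721 normalized counts, again lowest in replicate 1 and highest in replicate 4. Replicate 4 was the highest library for 16 of the 20 detected members, against 24.9% of all detected genes, and it also had the largest total of the 4 libraries. Dsp, the desmosomal protein desmoplakin, was the 1 member with a range of at least 2-fold, at 109, 150, 59 and 140. Cd99 was not analysed here.

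Genes of caveolae, the membrane pits that form transport vesicles, were near the top of the whole transcriptome. Cavin1 reached 571 per kb, Cav1 566, Ehd2 526, Cavin2 382 and Cav2 377. Cav1, the structural protein caveolin-1, held 1760, 1845, 2050 and 2148 normalized counts, with a mean of 1951 ± 179 (SD, n = 4). Of the 25 members of this list 22 were detected, Ager and the muscle gene Cavin4 were under 10, and Cav3 was not analysed here.

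Plvap and Mfsd2a, which mark opposite ends of vesicle transport, stood apart from each other. Plvap encodes the diaphragm protein of fenestrae and caveolae, which mature brain endothelium keeps low, and held 380, 416, 195 and 168 normalized counts, 146 per kb. Replicates 1 and 2 were about alike and above replicates 3 and 4. Mfsd2a, a lipid transporter known in mice to hold down transcytosis at the barrier, held 36, 30, 52 and 53 normalized counts, 19 per kb, at percentile 21.39. Its libraries fell in the opposite order, with replicates 3 and 4 the higher ones. In knockout vehicle, on the ranking over 12075 shared genes, Mfsd2a stood at percentile 18.64, against 20.14 in wild-type vehicle, and Plvap at 81.99, against 85.37.

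Receptors for transcytosis of cargo were spread over the whole range. Tfrc, the transferrin receptor that brings iron across the barrier, held 833, 890, 1141 and 1159 normalized counts, 163 per kb, and was higher in replicates 3 and 4. The neonatal Fc receptor subunit Fcgrt reached 256 per kb and the insulin receptor Insr 89.7. Lrp1, a large clearance receptor that pericytes and fibroblasts express strongly, held 411, 338, 121 and 30 normalized counts. Its level dropped with the pericyte sums given above, library by library, and their part in it was not tested.

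Of 18 ABC transporters 15 were detected, with a median percentile of 51.89. Abcb1a, the drug pump P-glycoprotein, led with 1296, 1277, 1173 and 1371 normalized counts, 233 per kb and percentile 95.23. Abcg2, the breast cancer resistance protein, held 1053, 1048, 1081 and 1149, 133 per kb. Both genes stayed within 1.17-fold across the 4 libraries. Abca3, a phospholipid transporter, reached 200 per kb, Abcc4, which exports organic anions, 198, and the cholesterol exporter Abca1 135. Abcb1b, the second rodent P-glycoprotein gene, was at 56.4 per kb, and because Abcb1a and Abcb1b are close paralogs the division of reads between them is uncertain. Abcb4 and Abcg4 were under 10, and Abcc2 was not analysed here.

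Among 51 solute carriers 47 were detected, and their median percentile was 62.47. Slc2a1, the glucose transporter GLUT1, held 1510, 1534, 1670 and 1798 normalized counts, 464 per kb. Slc7a5, the LAT1 carrier of large neutral amino acids and L-DOPA, held 1016, 1067, 1273 and 1502, 328 per kb, and its partner Slc3a2 was at 190 per kb. Both carriers were lowest in replicate 1 and highest in replicate 4. Slc38a2, a glutamine transporter, was at 222 per kb and the S1P exporter Spns2 at 209.

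The organic anion carriers Slco1c1 and Slco1a4, both characteristic of rodent brain endothelium, lay at 137 and 150 per kb. Slco1c1 held 765, 737, 500 and 848 normalized counts, and Slco1a4 held 1004, 997, 720 and 1128. Replicate 3 was the lowest for both. The taurine transporter Slc6a6 was also lowest there, with 1652, 1513, 713 and 1274. Slc7a11, the cystine importer that feeds glutathione synthesis, went the other way with 230, 202, 852 and 261, and its mean of 386 dropped to 231 without replicate 3. The neuronal glucose transporter Slc2a3 averaged 11.8 normalized counts, Slc1a3 and Slc7a3 were under 10, and Slc1a2 and Slc6a13 were not analysed here.

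Ion and water channels had the lowest median percentile of the 19 lists, 50.18, with 30 of 32 detected. Gja4, the connexin 37 of arterial endothelium, was at 398 per kb, the chloride channel proteins Clic1 and Clic4 at 362 and 314, the mechanosensitive channel Piezo1 at 302 and the calcium channel subunit Orai1 at 171. Piezo1 held 3012, 3014, 2897 and 3094 normalized counts, a range of 1.07-fold. Kcnj8, a pericyte potassium channel, and the astrocyte water channel Aqp4 were under 10.

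G protein-coupled receptors, with some of their ligands and partner proteins in the list, were detected in 44 of 57 cases. After the ligand Apln, the adhesion receptor Adgrl4 led with 538 per kb. S1pr1 followed at 474, Adgra2 at 437 and Adgrf5 at 432. Among the 176 genes of the table that the annotation used classes under G protein-coupled receptor activity, 91 were detected, and Adgrl4, S1pr1, Adgra2, Adgrf5 and Cxcr4 held the first 5 places. That class was added after values had been seen, and its annotation is incomplete. Cxcr4, the chemokine receptor, was at 417 per kb.

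S1pr1, the S1P receptor that tightens endothelial junctions, held 1212, 1282, 1602 and 1675 normalized counts, higher in replicates 3 and 4. S1pr4 held 128, 130, 189 and 153, which is 62.9 per kb, and S1pr2 and S1pr3 lay at 9.38 and 9.36 per kb. S1pr3 ran with the pericyte sums at 79, 49, 30 and 9 normalized counts. Ednra, the endothelin receptor of smooth muscle and pericytes, did so too with 98, 71, 51 and 3. The part of mural cell RNA in these values was not tested. Aplnr, the apelin receptor, held 565, 592, 342 and 292. Adrb1, Pth1r, Ptger1, Lpar1, Vipr1 and Hrh1 were under 10, and S1pr5, Lpar5, Bdkrb1, Ptger2, Fzd10, Mtnr1a and Agtr1a were not analysed here.

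Among the other lipid mediator genes, Gnai2, a subunit of the inhibitory G protein, was at 415 per kb, the lipid phosphate phosphatase Plpp1 at 352, the G protein subunits Gnb1 and Gna12 at 333 and 314. Of the 2 kinases that make S1P, Sphk2 stood at 86.1 per kb and Sphk1 was under 10, as was the S1P exporter of blood cells Mfsd2b. Apom was not analysed here. Spns2 was among the steadiest genes with 870, 863, 831 and 853 normalized counts.

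Growth factor and guidance receptors were detected in 32 of 34 cases, with 12 in the top decile. Plxnd1, a semaphorin receptor, led at 458 per kb, followed by the orphan receptor Tie1 at 447, the clearance receptor Mertk at 374, the guidance receptor Robo4 at 353 and Tek at 346. Tek, the receptor of angiopoietins, held 1681, 1662, 1458 and 1719 normalized counts. Kdr, the main signalling receptor for VEGF, held 2728, 2732, 2658 and 2879, 305 per kb. Flt1, which binds VEGF and limits Kdr signalling, held 4078, 4086, 3405 and 4113, 290 per kb. Replicate 3 was the lowest for all 3 receptors. Of 41 receptor tyrosine kinase genes in the annotation used, 33 were detected, with Tie1 and Mertk the highest. That annotated class does not hold Kdr, so it gives no full order of these receptors.

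Pdgfrb, the receptor through which pericytes are recruited, held 582, 464, 317 and 68 normalized counts, and the receptor kinase Axl 457, 362, 291 and 58. The ratio of the highest library (replicate 1) to the lowest (replicate 4), on values plus 1, was 8.45 for Pdgfrb and 7.76 for Axl. Robo1 and Erbb3 were under 10.

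BMP and TGF-beta receptors were high, with 28 of 31 members detected and a median percentile of 81.94. Eng, a co-receptor of endothelial BMP signalling, was at 511 per kb, and Acvrl1, the receptor kinase ALK1 that acts with it, at 452. Acvrl1 held 1777, 1812, 1976 and 2140 normalized counts. Tgfbr2 stood at 313 per kb, and the BMP target genes Id1 and Id3 at 290 and 230. Among the type I receptors Bmpr1a was low and uneven, at 100, 68, 43 and 9, while Bmpr1b was under 10 together with Smad9 and Bmper.

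Genes of Wnt and Norrin signalling, the pathway that induces the barrier during development, ranged more widely, with 23 of 31 detected and a median percentile of 68.3. Its receptor complex was high. Adgra2 (GPR124) held 2467, 2496, 2469 and 2663 normalized counts, 437 per kb, its partner Reck was at 145 per kb, and Tspan12, the co-activator of Norrin signalling, at 136. Fzd4, the receptor of Norrin, held 1389, 1368, 1533 and 1596, 219 per kb, and Ctnnb1, which carries the signal to the nucleus, was at 418 per kb. Lef1, a transcription factor of the pathway and one of its targets in brain endothelium, held 381, 365, 297 and 396, 40.9 per kb and percentile 40.13. Foxf2 and Sox17, also in the list, follow with the transcription factors. Sfrp1, Ror2, Dkk3, Wnt7b and Rnf43 were under 10, and Ndp, Wif1 and Wnt7a were not analysed here.

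Notch genes were detected in 17 of 19 cases, 7 of them in the top decile. The ligand Dll4 stood at 379 per kb, the feedback inhibitor Nrarp at 367, the endothelial receptor Notch4 at 326, the glycosyltransferase Mfng at 198 and the ligand Jag2 at 185. Notch1 held 2755, 2616, 2298 and 2549 normalized counts, 179 per kb. On this scale Mfng was the steadiest list member with a mean of at least 50, at 562, 563, 556 and 567. The mural receptor Notch3 differed, at 734, 548, 283 and 58, and so did the Notch target Heyl at 307, 218, 116 and 20. Both ran in the order of the pericyte sums, of which Notch3 is itself a part. Hes5 and Dlk1 were not analysed here.

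Of 32 leukocyte adhesion and cytokine receptor genes 31 were detected. Cd200, an inhibitory ligand for myeloid cells, led at 365 per kb. The TNF receptor Tnfrsf1a was at 325, the shared interleukin-6 receptor subunit Il6st at 251, the interferon receptor Ifnar1 at 243 and Cd34 at 232. Icam1, a ligand for leukocyte integrins, held 818, 780, 1031 and 948 normalized counts, 205 per kb, and Vcam1, which holds lymphocytes, 1855, 1795, 2412 and 2139, 231 per kb. Both were higher in replicates 3 and 4 than in 1 and 2. The selectins, which let leukocytes roll, were lower and more uneven. Sele held 142, 63, 167 and 128, and Selp 230, 139, 75 and 126. Tnfrsf11b was under 10.

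Integrins were led by the shared beta chain Itgb1 at 566 per kb, then Itga5 at 389, Itga3 at 308, Itga6 at 272 and Itgb3 at 256. These pair as receptors for fibronectin, laminin and, with Itgav, vitronectin. Itgav held 1183, 1261, 1944 and 1364 normalized counts, highest in replicate 3. Of 19 integrin genes 15 were detected, and Itgb2, Itgb7, Itga11 and Itgb8 were under 10, Itgb2 and Itgb7 being chains of leukocytes.

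Among small GTPase and actomyosin genes 44 of 45 were detected, with a median percentile of 81.72. Actb stood at 481 per kb, the small GTPases Rhob, Rhoc and Cdc42 at 460, 436 and 362, and Rasip1, an endothelial effector of Rap1 that steadies junctions, at 385. The GTPase Rac2 of blood cells was under 10. The paralogs Actb and Actg1, and Myl12a and Myl12b, share sequence, so their division of reads is uncertain.

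In the list of nitric oxide, kinase and second messenger genes 47 of 48 were detected. Cav1 was the highest, followed by Ece1, which activates endothelin, at 501 per kb, the endothelin gene Edn1 at 449, Nos3 at 436 and the kinase Mapk3 at 385. Nos3, the endothelial nitric oxide synthase, held 1777, 1770, 1746 and 1919 normalized counts. Ptk2, the focal adhesion kinase, was among the steadiest members at 1210, 1214, 1175 and 1194. Cyp1b1, a cytochrome P450 induced through the aryl hydrocarbon receptor, was uneven with 150, 14, 25 and 71, highest in replicate 1. The phosphodiesterase Pde2a was under 10.

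Coagulation and surface protease genes were detected in 25 of 27 cases, with 11 in the top decile. Thbd and Procr, which activate the anticoagulant protein C, were at 344 and 317 per kb, and the matrix protease Adamts1 at 324. Vwf, the von Willebrand factor, held 5782, 5614, 4609 and 5388, 333 per kb, and was lowest in replicate 3. Enpep, an aminopeptidase of pericytes, held 55, 52, 22 and 0. Mme and Ggt1 were under 10.

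Of 61 endothelial and barrier transcription factors 55 were detected, 15 in the top decile. Epas1, the hypoxia factor HIF-2 alpha of endothelium, led at 557 per kb with 3074, 3146, 2880 and 3365 normalized counts. Sox18 was next at 486 per kb and held 762, 762, 825 and 800. The repressor Bcl6b stood at 429, Sox7 at 393 and Erg at 342 per kb. In the wider class of 600 genes annotated for DNA-binding transcription factor activity, 508 were detected, and Epas1, Sox18 and Bcl6b were the first 3.

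The ETS factors Erg and Fli1 keep endothelial identity. Erg held 1140, 1193, 1069 and 1336 normalized counts, and Fli1 held 894, 865, 709 and 843, 237 per kb, both lowest in replicate 3. Sox17, which acts downstream of Wnt in brain vessels, held 689, 721, 746 and 772, 153 per kb. Foxf2, a forkhead factor needed for the barrier in mice, held 465, 422, 460 and 467, 192 per kb. Foxq1, a forkhead factor enriched in brain endothelium, was lower at 46.5 per kb and uneven with 259, 198, 146 and 298. Foxo1, which restrains endothelial growth, held 1654, 1583, 1520 and 1749, 188 per kb. Nr2f2, the venous factor COUP-TFII, held 537, 453, 275 and 309, 45.6 per kb, with replicates 1 and 2 above 3 and 4. Twist1, Nr2f1 and Prox1 were under 10, and Etv2, Hoxa5 and Hoxb7 were not analysed here.

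The flow-responsive factors Klf2 and Klf4 were both highest in replicate 4. Klf2 held 219, 222, 240 and 406 normalized counts, 147 per kb. Klf4 held 248, 230, 150 and 442, 87.7 per kb. Nr4a1, a nuclear receptor of the immediate early response, held 226, 209, 223 and 594.

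Signal-dependent factors were detected in 71 of 76 cases, with a median percentile of 76.91. Wwtr1, the Hippo co-activator TAZ, led at 394 per kb. The AP-1 member Jund was at 367, the NF-kappaB inhibitor Nfkbia at 325, the proteasome regulator Nfe2l1 at 324 and the NF-kappaB subunit Rela at 277. Yap1, the partner of TAZ, was steady at 868, 836, 854 and 874 normalized counts, and the cell cycle factor E2f4 at 312, 313, 313 and 321. The immediate early gene Fosb held 47, 57, 182 and 1063, and its mean of 337 dropped to 95.3 without replicate 4. Fos held 133, 136, 240 and 310, and the stress factor Atf3 189, 230, 440 and 581, both higher in replicates 3 and 4 than in 1 and 2. Rarb, Vdr, Ppara and Nfatc2 were under 10.

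The spread between the 4 libraries was measured on the narrow scale described above, which may also narrow differences between libraries in abundant genes. The median coefficient of variation (SD over mean) was 10.81%, and 1377 detected genes, 11.2%, had a range of at least 2-fold, computed on values plus 1. Without replicate 3 this count was 868, and with a minimum mean of 50 it was 508. A range of at least 4-fold was found for 322 genes. Spread depended on level. In the lowest decile of the level per kb the median coefficient of variation was 33.39% and 53.57% of genes had a 2-fold range, against 7.844% and 0.3247% in the top decile. Over the 12075 genes detected in both tables, in the lowest decile of the vehicle level the median was 27.11% in the 4 knockout vehicle libraries and 31.01% in wild-type vehicle. In the top decile it was 10.28% in knockout vehicle and 7.788% in wild-type vehicle, with no test made between the tables. Of the 597 detected list members 72, or 12.06%, had a 2-fold range, against 11.2% of all detected genes. List members lay more often in the top decile (31.32%), where such ranges were rare, so these shares are not matched for level.

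**Figure D4:**
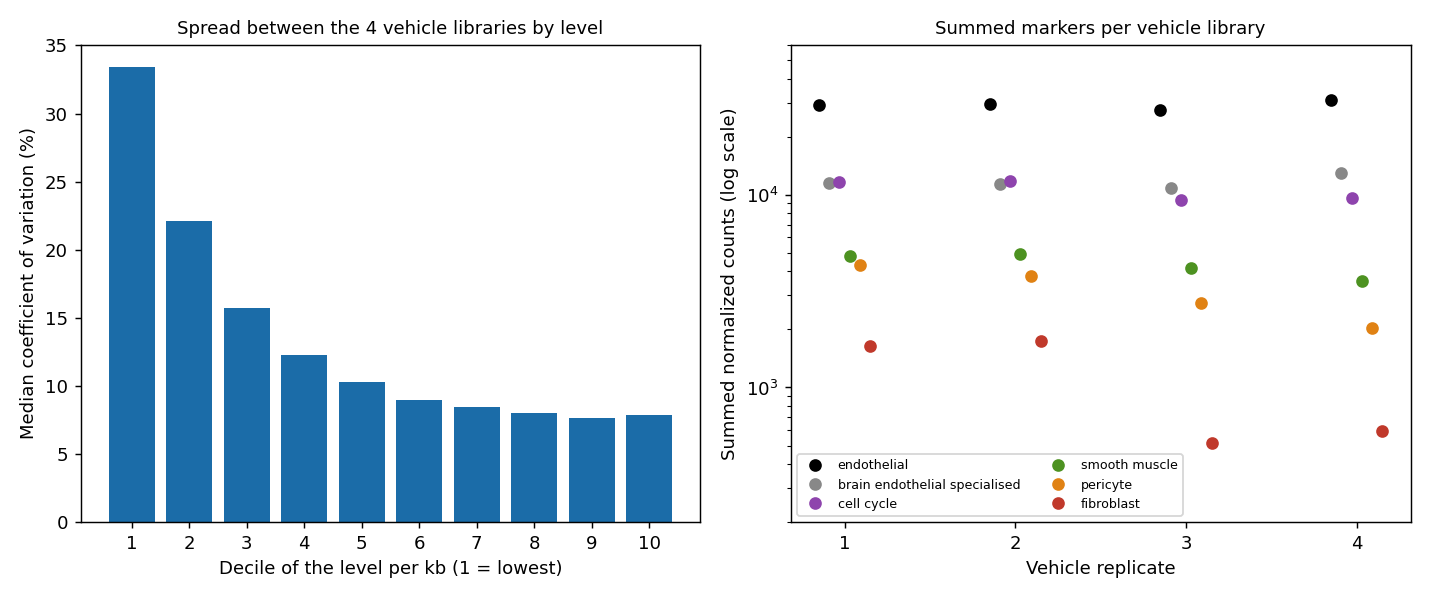
Left, median coefficient of variation in percent between the 4 wild-type vehicle libraries for each decile of the level per kb. It is 33.39% in the lowest decile and 7.844% in the highest. Right, summed normalized counts (log scale) of 6 marker lists in each vehicle replicate, where endothelial sums stay between 27553 and 30795 and pericyte sums between 2043 and 4339.

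The libraries were not equally alike. Replicates 1 and 2 differed at least 2-fold in 89 genes, and every other pair in 472 to 836 genes. Replicates 1 and 3 were the farthest apart, with 687 of their 836 genes higher in replicate 1. The correlation of log2 values across genes was 0.9904 for replicates 1 and 2 and 0.9584 for replicates 1 and 3. Replicates 1 and 2 were closer than any other pair on both measures.

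The largest ranges among genes with a mean of at least 50 belonged to Xist, Ednra, Fosb, Crispld2, Col1a1, Trpc6, Col6a2, Heyl, Inhba and Lrp1. Xist, the RNA of the inactive X chromosome of female cells, held 1, 2251, 1063 and 190 normalized counts. Of the other 9, Fosb was highest in replicate 4 and the remaining 8 were higher in replicates 1 and 2. Crispld2, a secreted protein, held 346, 239, 71 and 15. The collagen genes Col1a1 and Col6a2 held 167, 260, 12 and 16, and 273, 224, 74 and 17. The calcium channel Trpc6 held 95, 67, 50 and 4, and the activin subunit gene Inhba 161, 115, 75 and 11.

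In 205 genes, 1.66% of those detected, the replicate 1 value was at least 4 times the replicate 4 value, on values plus 1, and in 5 genes the reverse was found. This count was chosen after the values had been seen. It held 19 list members, 3.18% of the 597. They were Enpep, Ednra, Trpc6, Heyl, Lrp1, Notch3, Rgs5, Rgs4, Itga7, Bmpr1a, Gucy1a1, Ptgir, Pdgfrb, S1pr3, Axl, Gucy1b1, Itgb5, Pde3a and Tgfb3. Rgs5, a marker of pericytes, held 358, 329, 90 and 29, and Myh11, the myosin of smooth muscle, 451, 350, 83 and 42. These values ran with the summed pericyte markers of 4339, 3774, 2739 and 2043, while the endothelial sums were not lower in replicate 4. The 19 genes were picked for falling from replicate 1 to replicate 4, and Notch3, Rgs5 and Pdgfrb are part of the pericyte sums. Their likeness to these sums therefore follows at least in part from the choice. The part of mural cells in the 19 genes was not tested.

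Whether such differences recur under the same number was asked in the 16 treated wild-type libraries, without vehicle. A limma F test of replicate number, with treatment group means in the model, called 3011 of 12249 genes, 24.6%, at an adjusted p under 0.05 (Benjamini-Hochberg). All 19 list members named above were among the calls, Lrp1 with an adjusted p of 3.07e-06 and Pdgfrb with 0.000234. Of the 1287 tested genes with a 2-fold range in vehicle, 764, or 59.36%, were called. The count of calls depended on single libraries. It was 1112 without apical agonist replicate 1, 1219 without apical agonist replicate 3, 1877, 1303 and 1838 without basal agonist replicates 1, 3 and 4, and 1760 and 4670 without apical S1P replicates 1 and 4. It was 970 and 5361 without basal S1P replicates 1 and 2. Without the 4 libraries whose Xist level did not match their number (apical agonist 2, apical S1P 3 and 4, basal S1P 2) it was 7561. Those 4 were left out because they did not match their number, so a higher count follows from the choice and is no independent support. Without the mean-dependent prior it was 2012.

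Single genes show which treated libraries resemble a vehicle library. Fosb in replicate 4 was at 1321 normalized counts after agonist on the apical side and 1534 after agonist on the basal side. It was at 51 after apical S1P and 975 after basal S1P, and at 1063 in vehicle. Pdgfrb in the same 5 libraries, in that order, was at 60, 63, 238, 52 and 68. Apical S1P replicate 4 thus stood apart from the other 4 libraries of its number in both genes. Slc7a11 in replicate 3 was at 887 and 935 in the apical and basal agonist groups, at 234 and 817 in the apical and basal S1P groups, and at 852 in vehicle. In apical S1P it was replicate 4, with 993, that had the high value. Mki67 in replicates 1 and 2 of vehicle, at 1930 and 1964, lay near the 1814 to 2153 of most treated libraries of those numbers, with 1446 in apical agonist 2 and 959 in basal S1P 2 as the exceptions.

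**Figure D5:**
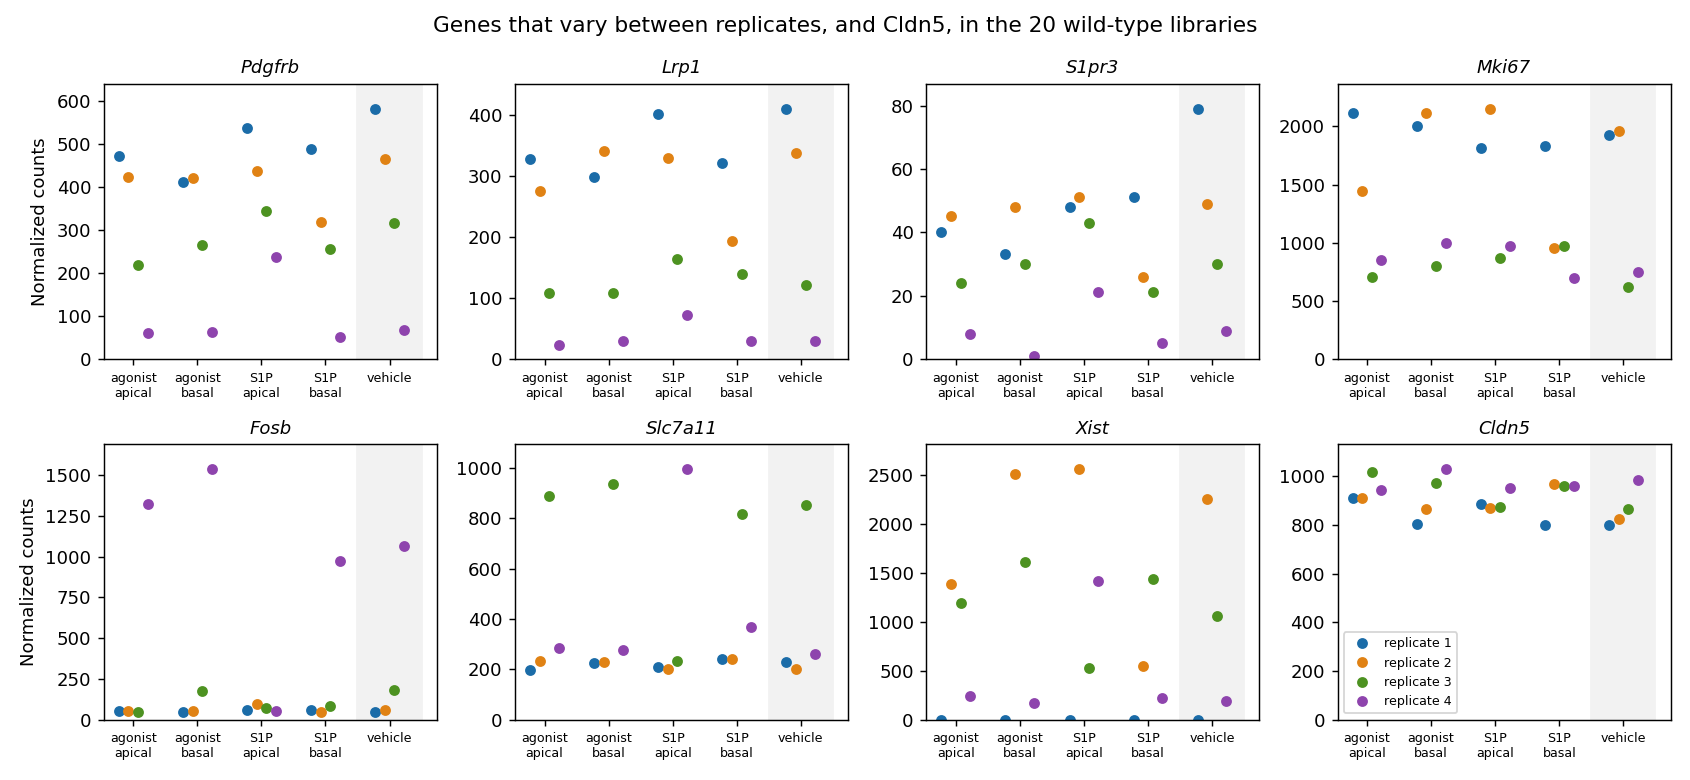
Normalized counts of 8 genes in the 20 wild-type libraries, by treatment group (horizontal, vehicle shaded at the right) and replicate number (colour). Pdgfrb, Lrp1 and S1pr3 are lowest in replicate 4 of every group, Fosb is high in replicate 4 of 4 groups and at 51 in apical S1P, and Cldn5 stays between 799 and 1028 throughout.

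In the 16 treated libraries together, set against vehicle, no gene passed the test. The test averages 4 different treatments, so a change under a single treatment, or opposite changes under different ones, can be missed. A limma fit of log2(value + 1) over all 20 wild-type libraries, with the mean of the 4 treated groups minus vehicle as the contrast, called 0 of 12249 genes (0%) at an adjusted p under 0.05, and 131 genes had an unadjusted p under 0.05. Those 131 are fewer than this threshold would pass if nothing differed and libraries were independent. With a replicate block in the fit there were 677, and again 0 calls. The 0 calls therefore do not show that the groups are alike. The 5 genes with the smallest p were all lower in the treated libraries, none past the threshold, and 4 of them are given here. The log2 difference, treated minus vehicle, was -0.44 ± 0.13 (SE) for Noxo1, a subunit of NADPH oxidase complexes, -0.24 ± 0.08 for Rffl, a ubiquitin ligase, and -0.17 ± 0.06 for Cpm, carboxypeptidase M. It was -0.28 ± 0.10 for the pseudogene Gm5113, and all 4 genes had an adjusted p of 0.9998 in limma. Noxo1 held 67, 50, 50 and 49 normalized counts in vehicle, where the treated libraries ran between 32 and 51. For Cldn5 the treated libraries ran between 799 and 1028, and vehicle between 799 and 984.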

How the data were processed

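Poly(A) RNA was sequenced from 20 wild-type libraries and 4 labelled S1P4 knockout, with 100 ng of RNA into a stranded kit, per the labels' protocols. The build mm10 and the tools STAR 2.7.3a, featureCounts 1.6.5, Subread, DESeq2 1.26.0, Trimmomatic 0.38 and FastQC stand in the submitters' processing notes, without role or order. Strand setting and duplicate handling: not given in the sources used here, so overlapping antisense genes may share reads. The values the authors deposited are a score per gene, here called normalized counts: the values read as counts per gene, scaled and then rounded, but no source used here states this, and a single factor for each library cannot give the narrow scale of the wild-type values. The reads were not recovered, so no count model was used. Wild-type genes numbered 18091, and 99.07% matched a gene's start and end in GENCODE M21 (mm10), whose merged exons gave lengths. The knockout values stood on 36326 rows for 18297 genes, and 1 of each pair of identical rows was kept.

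Groups come from the sample labels. The limma package 3.58.1 in R 4.3.3 (lmFit, eBayes with trend) was run on log2(value + 1) of 12249 genes that averaged 10 or more in the 20 wild-type libraries, with Benjamini-Hochberg adjustment over all of them and calls under 0.05. The fits were tested on simulated data, in which libraries were drawn independently of each other. For the treated contrast, no difference by replicate number was shared between groups there. The simulation therefore cannot show how that contrast behaves in these libraries. Gene members, lists and anchors were chosen with earlier results of these data known. Named are 38 anchor genes, the members of each list with the highest level per kb (up to 5) and those under 10, the 10 highest genes per kb, the 10 largest ranges and the 5 steadiest list members at a mean of at least 50, and the 5 smallest p-values of the treated contrast. Other genes were named after their values were seen, and some genes that the rule names are not reported here. Alternatives were other pseudocounts, filters, scalings and variance priors, a replicate block, and leaving out libraries. Promoters are from RefSeq (GRCm38.p6), where 10 of the 15 endothelial marker genes matched.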

Additional observations from a re-analysis of the deposited data

Results flagged for a closer look

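In 9 of the 87 genes whose vehicle values were checked, 1 library stood far from the other 3, its gap to the nearest exceeding the 95% limit of Dixon's test. Chance flags about 1 in 20 such groups, but some of the 87 were chosen for a wide range or after their values were seen, so their count cannot be read against that rate. Replicate 4 was the distant library in 6 of the 9 genes. It was high for the immediate early genes Fosb at 1063 and Nr4a1 at 594, for the flow-responsive factor Klf2 at 406, for the Wnt co-receptor Adgra2 at 2663 and for E2f4 at 321 normalized counts, and low for the smooth muscle actin Acta2 at 480. Replicate 3 was low for the VEGF receptor Flt1 at 3405 and high for the cystine importer Slc7a11 at 852. Replicate 2 was low for Foxf2 at 422. The gaps of E2f4, Foxf2 and Adgra2 are small in size, since their 4 values ran from 312 to 321, from 422 to 467 and from 2467 to 2663.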

How the results depend on the processing

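Counts in the vehicle libraries moved little with scaling. Without single vehicle replicates, detected genes numbered 12239 to 12388, genes with a 2-fold range 868 to 1161, and the median coefficient of variation was 8.80 to 11.34%. With a minimum mean of 50, genes with a 2-fold range numbered 508. Means of 4 values cannot move by 1 SD when 1 library is left out, so this says nothing about the stability of a gene's level. The mean of Xist, 876, was 418 without vehicle replicate 2, and that of Fosb, 337, was 95.3 without vehicle replicate 4. The count of genes differing by replicate number was 970 to 5361 without single treated libraries and 2012 with no trend, and the cause was not tested. It was 7561 without the 4 libraries not matching by Xist, which were left out for not matching their number. The treated contrast called 0 genes under every alternative run, 0 to 0 when single libraries were left out.

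With a replicate block the treated contrast called 0 genes, with 677 at an unadjusted p under 0.05 against 131 without it. Correlations of same-numbered deviations from the group means, between vehicle and treated libraries, were 0.375 to 0.805 in 15 of 16 cases. The correlation was 0.0291 for basal S1P replicate 2. The median was 0.674, against -0.364 over the 48 cases of unlike number. Deviations cancel within a group, so positive values at like numbers force lower ones at unlike numbers. The -0.364 is therefore no separate result. Of the 16 treated libraries 14 correlated best with the vehicle library of their own number, a hint of shared numbers from the data and not from the design. The exceptions were apical S1P replicate 4 and basal S1P replicate 2. In the other direction, a vehicle library correlated best with its own number within a treated group in 13 of 16 cases. There the exceptions were vehicle replicate 2 in apical agonist and basal S1P, and vehicle replicate 3 in apical S1P. The numbers were not taken as pairs because no label ties them and 1 correlation was under 0.1. Counting precision is unknown, and genes with low values spread most.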
